A study of Mus musculus with 479 samples.

Results

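The wild-type kidney libraries of 2 mouse lines were compared with the wild-type heart, liver and lung libraries of the same line. The kidney libraries were chosen by their labels alone, as the kidney samples of wild-type genotype, and numbered 60 of the 479 bulk RNA-seq libraries, 30 in each line. One line carries a Dchs1 allele and the other a Fat4 allele, both engineered with VelociGene technology and kept on the C57BL/6NTac background. Only the wild-type littermates, which served as controls for the Dchs1+/- and Fat4+/- heterozygotes, entered the comparison. Each line also held 30 wild-type libraries of each other tissue, so that 30 kidney libraries faced 90 others per line, 240 libraries in all. The labels give no treatment, age or sex and do not say that each library is a separate animal, so a p-value measures only the spread between libraries. In every one of the 60 kidney libraries the Y-linked gene Ddx3y was read, between 9.16 and 21.3 TPM (median 14.9) in Dchs1-line kidneys and between 10.2 and 20.7 TPM (median 14.2) in Fat4-line kidneys, and Xist, expressed from the inactive X chromosome, reached no more than 0.0602 and 0.0526 TPM.

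The kidney filters blood in glomeruli, whose podocytes hold the filtration slit, and recovers most of the filtrate along a tubule made of successive segments. The proximal tubule takes back glucose, phosphate, amino acids and protein and breaks down or makes many small molecules. The thick ascending limb, the distal tubule and the collecting duct then set the salt, calcium, acid and water content of urine.

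Sequencing depth, as the sum of estimated counts, ran from 10720364 to 32282525 in the Dchs1-line kidneys and from 11349490 to 19496666 in the Fat4-line kidneys. Levels below are in TPM, a relative transcript abundance that compares genes per unit of length. Paired values give the Dchs1 line first and the Fat4 line second, as mean ± SD over 30 libraries. Fold changes are log2 differences of edgeR's quasi-likelihood fit, kidney minus the named tissue, ± SE, with counts scaled by the trimmed mean of M-values (TMM), and adjusted p is after Benjamini-Hochberg. Mitochondrially encoded transcripts took 49.8 ± 4.86% and 45.1 ± 3.51% of kidney TPM, against 61.7% and 61.8% in heart, 19.5% and 23.1% in liver and 9.66% and 11.7% in lung. TMM rescales each library, and without it the median gene shifted by -0.82 and -0.75 on the log2 scale against lung, by 0.39 and 0.50 against heart and by 0.59 and 0.65 against liver, so a fitted fold and a ratio of TPM can differ for the same gene. Kidney libraries of each line carried label numbers in 2 or 3 separate stretches, and tissue and stretch of numbers cannot be told apart. In each line, 1 liver library held most of the liver reads of the 4 kidney markers and Kap, 897 of 925 and 124 of 147, while no other liver library held more than 4 and 2. The counts of kidney-high genes, and of kidney-high genes that differed between the lines, are given with and without it.

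The 4 marker genes were read in every kidney and were near 0 elsewhere, so the defining markers matched the kidney label. Slc34a1, the sodium-phosphate cotransporter of the proximal tubule, lay between 634 and 1912 TPM (median 1062) in Dchs1-line kidneys and between 825 and 1713 TPM (median 1323) in Fat4-line kidneys. Miox, the enzyme that opens the ring of myo-inositol in proximal tubule cells, lay between 540.2 and 1180 TPM (median 852) in Dchs1-line kidneys and between 703 and 1279 TPM (median 1009) in Fat4-line kidneys. Umod, which encodes the uromodulin that thick ascending limb cells shed into urine, lay between 193 and 933 TPM (median 463) in Dchs1-line kidneys and between 554 and 1475 TPM (median 891) in Fat4-line kidneys. Slc12a1, the loop-diuretic-sensitive salt cotransporter of the same segment, lay between 68.3 and 261 TPM (median 128) in Dchs1-line kidneys and between 118 and 423 TPM (median 224) in Fat4-line kidneys. For each of the 4 genes all 30 kidneys of a line lay above all 90 other libraries, whose highest value was 2.45 TPM (Miox in 1 liver library). The plot of the 4 markers by tissue shows this gap. Against the mean of the 3 tissues the log2 difference of Slc12a1 was 13.99 ± 0.10 and 15.38 ± 0.094 (adjusted p = 3.2e-135 and 6.4e-142, edgeR), and 14.69 and 15.69 without that 1 liver library of each line, where each line then has a tissue with no read and the size depends on the prior count of the fit. Heart held no read of Umod in 30 libraries of either line, which puts kidney at least 136200-fold and 208900-fold higher, taking 3 reads over the 30 libraries as the limit a count of 0 allows. The mean level of Slc34a1 in liver was 0.0479 and 0.0314 TPM, and 0.00436 and 0.00204 TPM without the 1 liver library, so a fold over liver rests on that library. In the Dchs1 line 152 of the 177 liver reads of the 4 markers came from the 1 liver library named above, and in the Fat4 line 40 of 62.

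**Figure D1:**
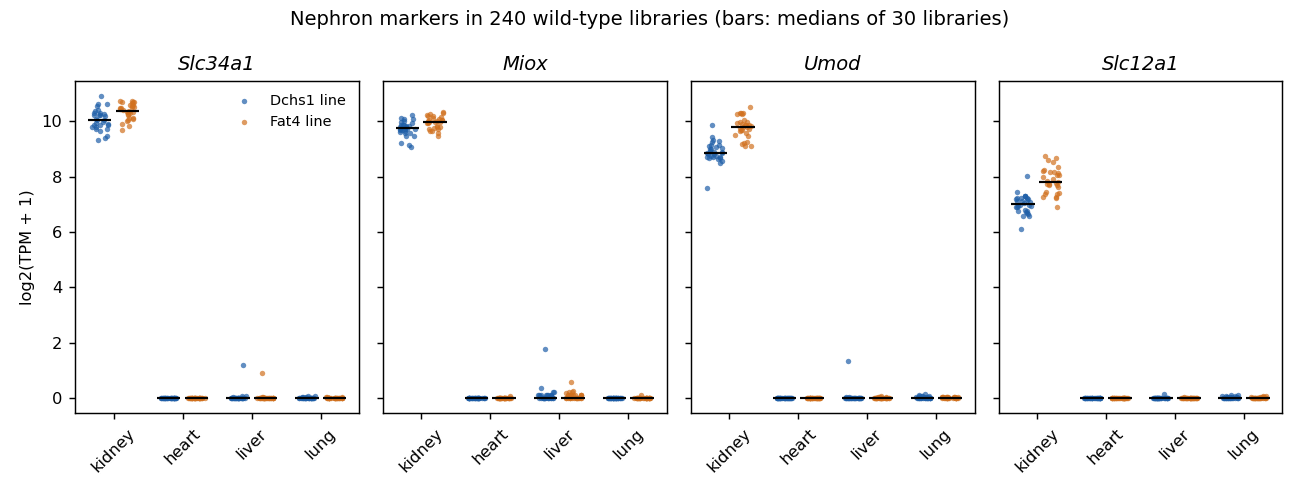
Level of Slc34a1, Miox, Umod and Slc12a1 as log2(TPM + 1) in each of the 240 wild-type libraries, by tissue and line. Points are libraries and bars are medians of 30 libraries. All 30 kidneys of each line lie above all 90 other libraries for each gene, and the highest other value is 2.45 TPM.

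Most genes differed between kidney and the mean of the other tissues, so direction against that mean alone says little about any gene. In the Dchs1 line 7041 of 16075 genes tested were higher in kidney (43.8%) and 6642 were lower (41.3%), by edgeR's quasi-likelihood test at adjusted p under 0.05. The Fat4 line gave 7279 (45.3%) and 6881 (42.8%) of 16081 genes. In both lines 6602 genes were higher (41.2% of 16011) and 6124 were lower (38.2%). With the 90 other libraries taken as 1 group, 4196 and 4376 genes were higher, 35.6% and 36.1% of the genes called, against 51.5% and 51.4% for the mean of the tissues.

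Against single tissues, 13.2% and 13% of genes were at least 4-fold higher in kidney than in heart and 9.13% and 9.51% at least 4-fold lower. The shares were 17% and 17.1% higher and 7.68% and 7.72% lower against liver, and 10.2% and 10.6% higher and 14.2% and 14.4% lower against lung.

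A stricter class, called kidney-high here, held genes at least 4-fold higher in kidney than in heart, in liver and in lung, each at adjusted p under 0.05, in both lines. It held 593 genes (3.7% of those tested), from 607 for Dchs1 (3.78%) and 623 for Fat4 (3.87%), which is 97.69% and 95.18% of each list. The opposite class, kidney-low, held 108 genes (0.675%), from 122 (0.759%) and 135 (0.84%). For 566 of the 593 kidney-high genes every kidney library of both lines lay above every other library of its line, and for 56 of the 108 kidney-low genes every kidney lay below. Over all genes tested 911 (5.69%) had all kidneys above in both lines, from 5.88% and 7.28% in each, and 159 (0.993%) had all kidneys below, from 1.16% and 1.98%. Nearest to the 4-fold limit, Mpp1 and Pepd stood inside with a smallest log2 difference of 2.001 and 2.005, and Gas2 and Pyroxd2 outside with 1.98 and 1.99. Leaving out the 1 liver library of each line gave 593 kidney-high genes, 592 of them shared. Without scaling, 536 genes were kidney-high, 502 of them shared, and 90 kidney-low, 75 of them shared. The scatter of the log2 differences of each gene in the 2 lines shows both classes.

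**Figure D2:**
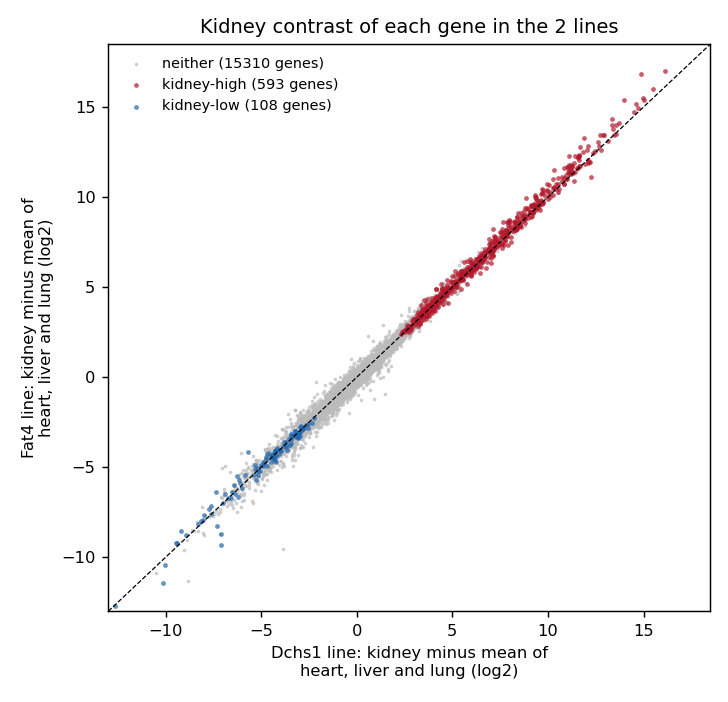
Log2 difference of kidney from the mean of heart, liver and lung for each gene tested, in the Dchs1 line (x axis) and the Fat4 line (y axis). Red points are the 593 kidney-high genes, blue points the 108 kidney-low genes and grey points all other genes, and the dashed line marks equal differences in both lines.

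Kidney-high genes made up 10.3 ± 1.24% and 11.2 ± 1.04% of kidney TPM (SD, n = 30), with a range of 6.95% to 12.1% and of 9.17% to 13.4%. In heart the same genes took 0.104% and 0.105%, in liver 0.114% and 0.114% and in lung 0.45% and 0.473%. Their mean level in kidney, in the line where it was lower, was at least 1 TPM for 542 genes, at least 100 TPM for 96 and at least 1000 TPM for 8. The smallest of their log2 differences over tissues and lines had a median of 4.09, and for 301 genes it was past 16-fold and for 182 past 64-fold. Symbols of the solute carrier family, the transporters that move ions and small molecules across membranes, stood for 62 of the 593 (10.5%), from 328 tested. Of the solute carrier symbols tested 18.9% were kidney-high, beside 3.7% of all genes tested.

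A few of these genes were very abundant. Kap, the androgen-regulated protein that proximal tubule cells make, lay between 28090 and 55180 TPM (median 46560) in Dchs1-line kidneys and between 30840 and 57280 TPM (median 46210) in Fat4-line kidneys, the highest level among kidney-high genes. No other library passed 89.9 TPM in the Dchs1 line or 12.5 TPM in the Fat4 line, and both of those values belong to the liver libraries that stood apart. Gpx3, the glutathione peroxidase secreted into plasma, lay between 13070 and 20410 TPM (median 16290) in Dchs1-line kidneys and between 12980 and 20700 TPM (median 17850) in Fat4-line kidneys. Its level in lung was 1367 ± 175 and 1458 ± 191 TPM, below every kidney, and its log2 difference from lung was 4.66 ± 0.15 and 4.61 ± 0.11, a smaller gap than that from liver, 10.22 ± 0.19 and 10.60 ± 0.14. Fxyd2, the gamma subunit that tunes the sodium pump, stood at 2431 ± 361 and 2579 ± 358 TPM in kidney and at 1.37 and 1.33 TPM in heart, where its log2 difference was 10.33 ± 0.18 and 10.36 ± 0.10. Ndrg1, a stress-induced gene, stood at 1777 ± 339 and 2019 ± 256 TPM, Acy3, an aminoacylase, at 1295 ± 340.3 and 1348 ± 247 TPM, and Spink1, a secreted serine protease inhibitor, at 1006 ± 186 and 1061 ± 156 TPM. Napsa, the aspartic protease of lung surfactant cells that the proximal tubule also makes, came at 869.7 ± 173 and 1093 ± 221 TPM in kidney against 325 ± 64.5 and 374 ± 72.7 TPM in lung. Of its Dchs1-line kidneys 29 of 30 lay above all other libraries, and all 30 in the Fat4 line, at a log2 difference from lung of 2.48 ± 0.088 and 2.59 ± 0.073. Without TMM scaling Napsa was not kidney-high.

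The lists of genes for the nephron's segments and cell types are described in the order of urine flow, beside 593 kidney-high genes among 16011 (3.7%) and a median log2 difference of 0.00151 and -0.00175 over all genes. A bulk library cannot tell fewer cells of a type from less RNA per cell, and the small shares of some cell types in kidney tissue enter every level below. With the 90 other libraries as 1 group fewer members of most lists passed the edgeR test as higher, and that count is given for most of these lists. A list given without that count can have moved too.

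Of 15 podocyte genes, 2 were kidney-high, 13 were higher and 1 lower than the mean of the other tissues in both lines, and the median log2 difference was 1.86 and 1.53. The counts were 8 higher and 2 lower with the other libraries as 1 group. Nphs1, which encodes the nephrin of the slit between podocyte feet, was kidney-high. It lay between 3.79 and 7.41 TPM (median 5.76) in Dchs1-line kidneys and between 4.94 and 8.67 TPM (median 6.74) in Fat4-line kidneys, with all 30 kidneys of each line above all others. Podxl, the sialomucin that coats podocytes and vessel cells, was higher than the mean of the tissues by 1.39 ± 0.044 and 1.47 ± 0.043, though not with the other libraries as 1 group (0.39 and 0.48, adjusted p = 0.24 and 0.14, edgeR), and stood at 53.2 and 61.1 TPM in kidney against 159.6 and 168 TPM in lung. Npnt, a basement membrane ligand, was also higher in lung, at 179 and 209 TPM against 45.8 and 52.4 TPM in kidney. Plce1, a phospholipase C, was the podocyte gene that was lower, with a log2 difference of -1.498 ± 0.075 and -1.60 ± 0.052.

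Proximal tubule genes were higher in kidney than in the mean of the other tissues, a direction that held for fewer of them with the other libraries as 1 group. Of 15 genes of the early segments all 15 were higher and 11 were kidney-high (median log2 difference 8.89 and 9.01), of 17 genes of the straight segments 17 and 12 (8.76 and 8.71), and of 20 proximal tubule enzymes 20 and 9 (8.58 and 8.67, or 8.75 and 8.67 with genes unread in a tissue at their lower bound). With the other libraries as 1 group 12, 14 and 11 of them were higher, 1 early gene and 1 enzyme were lower, and Cyp2e1 turned to -1.41 and -1.47 (adjusted p = 0.082 and 0.068, edgeR). Slc5a2, the glucose cotransporter SGLT2 of the early segment, lay between 86.9 and 186 TPM (median 117) in Dchs1-line kidneys and between 73.4 and 188 TPM (median 143) in Fat4-line kidneys. The highest of the other 90 libraries were at 0.422 and 0.313 TPM, so the groups did not overlap, and the log2 difference from lung was 11.06 ± 0.13 and 11.18 ± 0.095. The receptors that take up filtered protein, megalin (Lrp2) and cubilin (Cubn), stood at 101 ± 39.5 and 114 ± 31.1 TPM and at 34.9 ± 11.8 and 38.8 ± 10.3 TPM. Lrp2 was also read in lung, at 8.45 ± 3.28 and 7.72 ± 2.37 TPM, with every kidney above every lung library. Slc22a6, the basolateral organic anion transporter, was at 258 ± 53.6 and 291 ± 42.4 TPM, and neither line had a read in heart or lung. Its bounds were at least 109700-fold and 105000-fold over heart. Slc13a1, a sodium-sulfate cotransporter, stood at 206 ± 51.5 and 204 ± 40.4 TPM, and Slc7a13, an aspartate and glutamate transporter of the last proximal segment, at 277 ± 97.8 and 285 ± 77.1 TPM. Mep1a, a subunit of the brush border protease meprin, was at 426 ± 105 and 492 ± 118 TPM and Dao, which oxidises D-amino acids, at 197 ± 23.1 and 220.1 ± 20.7 TPM.

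Liver came nearest to kidney for several proximal tubule genes. Slc4a4, the bicarbonate cotransporter of the basolateral side, was at 182 ± 49.8 and 184 ± 36.2 TPM in kidney and 41.7 ± 9.88 and 54.6 ± 10.7 TPM in liver, a log2 difference of 1.68 ± 0.081 and 1.26 ± 0.056, which left it outside the kidney-high class. Acsm3, a medium-chain acyl-CoA synthetase, stayed inside with 2.21 ± 0.17 and 2.10 ± 0.14 against liver. Cyp2e1, a cytochrome P450, was at 1146 ± 276 and 1228 ± 203 TPM in kidney and higher in liver, at 6692 ± 1122 and 7270 ± 956 TPM, a log2 difference of -2.99 ± 0.19 and -3.05 ± 0.18. Acsm2, another acyl-CoA synthetase, was kidney-high at 1192 ± 314 and 1119 ± 346 TPM and has near-identical neighbours, among which the authors' counting could split reads. The plot of list members by segment shows the spread within each group.

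**Figure D3:**
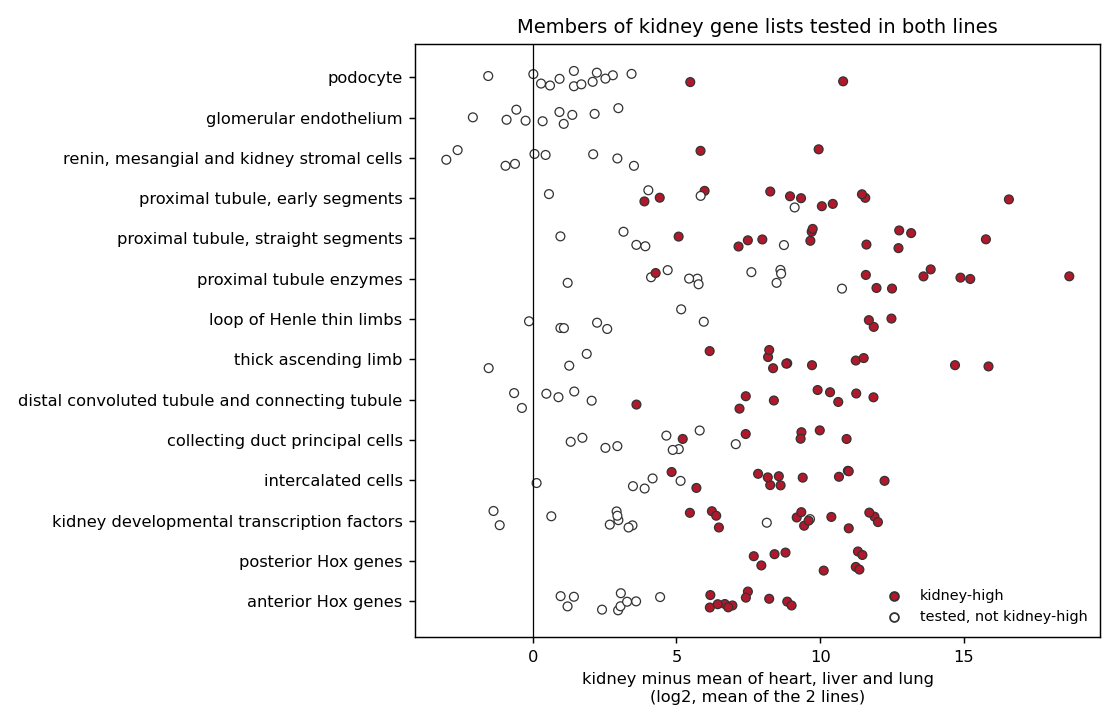
Log2 difference of kidney from the mean of heart, liver and lung for each member of 14 gene lists, as the mean of both lines. Each point is a gene and red points are kidney-high genes. Most proximal tubule and posterior Hox genes lie far to the positive side, while the glomerular endothelium list holds no kidney-high gene.

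For the bases around the start of kidney-high genes, the plan named the motifs of HNF1 and HNF4 factors. The match of the HNF4 motif is given, and the HNF1 motif is not reported here. RefSeq promoters (GRCm38.p6, 250 bases before to 50 after the gene start) were matched for 442 of the 593 kidney-high genes. The 9 letters CAAAGTCCA of the motif of HNF4 factors, which liver and proximal tubule cells use, were found on either strand in 4 of them (0.905%). They were in 60 of 12578 promoters of genes tested (0.477%), in 0.477% of all 27025 promoters and in 2 of 132 promoters of genes that kidney shares with liver (1.52%). A match describes these letters and is not a bound site. Pdzk1 and Treh were among the 4, chosen after their values were seen. The 250 bases before the start are shown for Treh, which encodes the brush border enzyme trehalase and has the match before its start, and for Slc34a1 and Miox, the proximal tubule pair that varied together across kidneys. The bases run 5′ to 3′ on the gene's strand, with the motif letters in capitals (TGGACTTTG where the motif is on the other strand).
Treh: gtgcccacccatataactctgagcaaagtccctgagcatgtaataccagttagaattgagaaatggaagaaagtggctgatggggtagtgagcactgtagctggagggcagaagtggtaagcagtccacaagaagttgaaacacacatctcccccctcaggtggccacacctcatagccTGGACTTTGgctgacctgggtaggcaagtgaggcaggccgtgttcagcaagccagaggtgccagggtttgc
Slc34a1: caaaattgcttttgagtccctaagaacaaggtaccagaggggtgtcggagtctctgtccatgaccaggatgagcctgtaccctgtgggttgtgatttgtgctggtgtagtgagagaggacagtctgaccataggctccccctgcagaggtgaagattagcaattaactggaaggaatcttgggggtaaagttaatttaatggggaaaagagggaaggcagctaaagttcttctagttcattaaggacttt
Miox: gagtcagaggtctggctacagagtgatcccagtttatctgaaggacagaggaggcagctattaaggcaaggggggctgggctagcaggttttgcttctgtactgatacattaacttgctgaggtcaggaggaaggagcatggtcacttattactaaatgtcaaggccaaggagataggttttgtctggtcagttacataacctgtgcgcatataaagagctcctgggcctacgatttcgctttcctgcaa
These bases lie at chr9:44672983-44673232 for Treh, chr13:55399398-55399647 for Slc34a1 and chr15:89334223-89334472 for Miox, each on the forward strand. The motif in Treh started -71 bases from the gene start, and the letters were not found in the windows of Slc34a1 and Miox. Treh lay between 23.3 and 64.3 TPM (median 42.4) in Dchs1-line kidneys and between 31.1 and 69.9 TPM (median 49.5) in Fat4-line kidneys, against at most 7.74 and 2.61 TPM elsewhere.

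Further kidney-high genes of tubule cells were each near 0 elsewhere. Cltrn, or collectrin, which brings amino acid transporters to the proximal brush border, lay between 471 and 1289 TPM (median 873) in Dchs1-line kidneys and between 587 and 1295 TPM (median 907) in Fat4-line kidneys, against at most 1.34 and 1.005 TPM elsewhere. Kcnj16, a potassium channel subunit of the basolateral membrane, stood at 218 ± 63.1 and 212 ± 44.4 TPM in kidney and no other library passed 1.42 and 0.954 TPM. Pkhd1, which encodes the fibrocystin of tubule cilia, stood at 7.33 ± 2.12 and 9.51 ± 2.11 TPM, against 0.661 and 0.792 TPM in the highest other library.

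Of 10 genes tested for the thin limbs of Henle's loop, 3 were kidney-high and 9 were higher than the mean (median 3.88 and 3.87). The counts were 8 higher and 1 lower with the other libraries as 1 group. Slc14a2, the urea transporter gene, stood at 50.8 ± 8.39 and 57.0 ± 15.2 TPM in kidney, and the highest other library was at 0.510 and 0.251 TPM. Wfdc15b, a small secreted protein, reached 211 ± 46.9 and 279 ± 61.1 TPM, with no read in any heart library. Thick ascending limb genes followed Umod and Slc12a1: 11 of 14 were kidney-high and 13 were higher (median 8.39 and 8.86, or 8.43 and 8.86 with unread genes at their bound). Of these 14 genes, 12 were higher and 1 lower with the other libraries as 1 group. Egf, the growth factor whose precursor this segment and the distal tubule release into urine, lay between 41.7 and 269 TPM (median 115) in Dchs1-line kidneys and between 98.5 and 406 TPM (median 181) in Fat4-line kidneys. All kidneys lay above all other libraries for Egf, and its log2 difference from heart, the nearest tissue, was 5.82 ± 0.10 and 6.38 ± 0.10. Kcnj1, the potassium channel ROMK that returns potassium to the lumen, was at 36.9 ± 7.23 and 55.2 ± 10.02 TPM. Cldn16, a claudin for the passage of magnesium and calcium between cells, was at only 3.17 ± 0.767 and 4.41 ± 1.11 TPM, but no read of it was found in any of the 90 other libraries of either line. Cldn10, a sodium-selective claudin in part of its isoforms, was at 204 ± 26.4 and 224 ± 19.6 TPM in kidney and 73.9 ± 18.2 and 66.7 ± 10.8 TPM in lung, with 29 of 30 Dchs1-line kidneys and all 30 of the Fat4 line above all other libraries. Cldn10 was not kidney-high without scaling.

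In the distal convoluted and connecting tubule list 9 of 15 genes were kidney-high, 13 were higher and 2 lower than the mean (median 6.96 and 7.42, or 7.19 and 7.62 with unread genes at their bound). Slc12a3, the thiazide-sensitive salt cotransporter, lay between 13.7 and 91.2 TPM (median 35.9) in Dchs1-line kidneys and between 26.7 and 88.8 TPM (median 45.8) in Fat4-line kidneys, above all other libraries. Klk1, tissue kallikrein of the connecting tubule, was at 606 ± 137 and 835 ± 193 TPM, and near-identical kallikrein copies make its reads uncertain. The calcium handling genes were kidney-high at unlike levels. Calb1 (calbindin) stood at 15.1 ± 7.63 and 18.2 ± 8.52 TPM, Pvalb (parvalbumin) at 8.63 ± 2.74 and 10.6 ± 2.69 TPM and S100g (the small calbindin) at 509 ± 139 and 587 ± 116 TPM, while Trpv5, the luminal calcium channel, was low at 0.546 ± 0.405 and 0.621 ± 0.398 TPM. S100g also stood at 135 ± 31.5 and 129.6 ± 23.0 TPM in lung, and 29 of 30 Dchs1-line kidneys and all 30 of the Fat4 line were above all other libraries. With the other libraries as 1 group 10 were higher and 4 lower. The genes lower than the mean were Wnk1, a kinase of salt balance, with a log2 difference of -0.32 ± 0.052 and -0.44 ± 0.034, and Atp2b4, a calcium pump, with -0.56 ± 0.057 and -0.74 ± 0.051.

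All 15 principal cell genes of the collecting duct were higher than the mean and 6 were kidney-high (median 5.36 and 5.22). With the other libraries as 1 group 10 of the 15 were higher, and Scnn1g and Krt7 turned direction, to -1.77 and -1.42 and to -0.72 and -0.31. Aqp2, the vasopressin-regulated water channel, lay between 25.7 and 139 TPM (median 91.8) in Dchs1-line kidneys and between 76.0 and 208 TPM (median 121) in Fat4-line kidneys, and no other library passed 0.921 and 0.571 TPM. Avpr2, the vasopressin receptor upstream of it, stood at 8.23 ± 2.13 and 11.7 ± 2.53 TPM, and Hsd11b2, which inactivates corticosterone in aldosterone target cells, at 34.3 ± 7.61 and 46.6 ± 6.93 TPM. Scnn1g, a subunit of the epithelial sodium channel, was instead higher in lung, at 103 ± 20.8 and 105 ± 9.78 TPM against 4.70 ± 1.27 and 6.46 ± 1.52 TPM in kidney, a log2 difference of -3.36 ± 0.061 and -3.005 ± 0.066. Krt7, a keratin of duct cells, also stood higher in lung, at 354 and 329 TPM against 33.7 and 43.2 TPM.

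Intercalated cells, which secrete acid or base, had 12 of 17 genes kidney-high and 16 higher (median 7.91 and 8.27, or 7.91 and 8.17 with unread genes at their bound). The counts were 15 higher and 1 lower with the other libraries as 1 group. Atp6v0a4, a proton pump subunit of the apical membrane, lay between 47.4 and 119.6 TPM (median 79.5) in Dchs1-line kidneys and between 56.0 and 121 TPM (median 89.3) in Fat4-line kidneys, against at most 6.43 and 4.72 TPM elsewhere. Rhcg, an ammonia transporter, was at 24.8 ± 3.93 and 31.3 ± 3.64 TPM, and in the Fat4 line no other library held a read, which puts kidney at least 6050-fold, 5270-fold and 16070-fold over heart, liver and lung. Foxi1, the transcription factor of these cells, stood at 11.8 ± 2.167 and 13.8 ± 2.63 TPM and Aqp6, an intracellular aquaporin, at 19.4 ± 4.37 and 25.1 ± 4.80 TPM. Slc26a4, or pendrin, the chloride-bicarbonate exchanger of base-secreting cells, was at 9.62 ± 2.52 and 11.2 ± 2.31 TPM in kidney and 2.93 ± 1.13 and 2.84 ± 1.21 TPM in lung, and 29 of 30 kidneys of each line lay above all other libraries, though it was not kidney-high without scaling. Slc4a1, the anion exchanger of acid-secreting cells and of red cells, was at 9.74 ± 1.93 and 12.3 ± 2.10 TPM, above all other libraries, while of 9 genes on the erythroid list 2 were higher and 4 lower than the mean. Atp6v1g3, a proton pump subunit of the same cells, ranged more widely, between 19.2 and 127 TPM (median 84.3) in Dchs1-line kidneys and between 20.6 and 129 TPM (median 87.3) in Fat4-line kidneys.

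Junction and water channel genes were taken across segments. Of 22 genes of claudins and junctions 6 were kidney-high, 15 were higher and 3 lower than the mean (median 2.46 and 2.29), or 10 higher and 8 lower with the other libraries as 1 group. Cdh16, the kidney-specific cadherin of tubule cells, lay between 93.0 and 316 TPM (median 183) in Dchs1-line kidneys and between 168 and 346 TPM (median 238) in Fat4-line kidneys, and every kidney was above every other library of its line. Cldn8 of the distal nephron stood at 16.5 ± 3.63 and 21.5 ± 4.32 TPM in kidney and 3.18 ± 1.14 and 3.60 ± 0.470 TPM in lung, and Cldn19, the partner of Cldn16, at 8.34 ± 2.33 and 12.3 ± 2.60 TPM. Of 10 aquaporin genes tested 3 were kidney-high, 8 were higher and 1 lower (median 2.19 and 2.40, or 2.32 and 2.40 with unread genes at their bound), and 6 higher and 3 lower with the other libraries as 1 group. Aqp3, the basolateral water channel of principal cells, was kidney-high at 40.4 ± 9.15 and 49.7 ± 6.44 TPM. Aqp1, the water channel of the proximal tubule and of capillaries, stood at 241 ± 40.0 and 281 ± 29.7 TPM in kidney and 486 ± 109.9 and 547 ± 77.4 TPM in lung, and Aqp9 of hepatocytes was the aquaporin that was lower.

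Genes known to differ between male and female mouse kidney were also listed, with Ddx3y read in every kidney as above. Of the 19 such genes 9 were kidney-high, 16 higher and 3 lower than the mean (median 7.22 and 7.12), and Kap, Slc7a13, Acsm3 and Napsa described above are among the 9. Kidney against other tissues does not compare the sexes, so these counts say nothing of a male or female pattern. Cyp2j13, a male-biased cytochrome P450, stood at 76.9 ± 25.4 and 78.1 ± 19.9 TPM, with at most 0.104 and 0.127 TPM in any other library. Odc1, the androgen-responsive first enzyme of polyamine synthesis, lay between 130.4 and 808 TPM (median 300.1) in Dchs1-line kidneys and between 123 and 609 TPM (median 316) in Fat4-line kidneys, above all other libraries in all 30 kidneys of each line.

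Genes of stromal and vessel cells were also listed. Of 11 genes of renin, mesangial and stromal cells, 2 were kidney-high, 6 higher and 4 lower (median 0.59 and 0.31), with 4 higher and 5 lower when the other libraries were 1 group. Ren1, which encodes renin of the juxtaglomerular cells, lay between 38.3 and 131 TPM (median 62.2) in Dchs1-line kidneys and between 48.0 and 103 TPM (median 65.1) in Fat4-line kidneys, with every kidney above every other library. Itga8, an integrin of mesangial cells, was lower, with a log2 difference of -0.82 ± 0.13 and -1.07 ± 0.093, and so was Postn, a matrix protein, with -3.05 ± 0.094 and -2.96 ± 0.084. Of 10 genes of glomerular endothelium none was kidney-high, 5 were higher and 3 lower by edgeR (median 0.60 and 0.63), or 2 higher and 7 lower with the other libraries as 1 group. Emcn, the endomucin of capillaries, had a log2 difference of 2.11 ± 0.054 and 2.19 ± 0.051 and Kdr, the VEGF receptor, one of -0.89 ± 0.063 and -0.93 ± 0.047.

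Kidney transcription factor genes were mostly higher than the mean: 22 of 24 tested, with 13 kidney-high (median 6.46 and 6.39), while Six2 of the nephron progenitors did not pass the filter on low counts. The counts were 18 higher and 3 lower with the other libraries as 1 group, where Hnf4a no longer passed in either line (0.92 and 0.69). Pax8, a factor of the nephron lineage, stood at 33.2 ± 3.67 and 41.4 ± 4.48 TPM and Pax2 at 13.4 ± 1.96 and 17.6 ± 2.60 TPM, with at most 0.143 and 0.0786 TPM and 0.0315 and 0.0274 TPM in other libraries. Emx2, needed for the ureteric bud, lay between 15.8 and 24.04 TPM (median 19.4) in Dchs1-line kidneys and between 16.8 and 24.4 TPM (median 20.7) in Fat4-line kidneys. Hnf4a, which liver and proximal tubule share, stood at 197 ± 31.6 and 204 ± 26.8 TPM against 232 ± 47.5 and 273 ± 44.0 TPM in liver.

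Hox genes, which keep the head-to-tail position of a tissue in the embryo, were listed as posterior and as anterior and middle groups. All 9 posterior Hox genes tested (groups 9 to 11), of 16 listed, were kidney-high, with a median log2 difference of 10.1 and 10.2. The median was 11.1 and 11.2 where the ratio of summed reads replaced the fit for genes unread in a tissue. Hoxa10 lay between 15.1 and 22.1 TPM (median 19.8) in Dchs1-line kidneys and between 17.3 and 22.6 TPM (median 19.9) in Fat4-line kidneys, and the highest other library was at 0.0753 and 0.0396 TPM. Hoxc10 stood at 14.8 ± 1.88 and 16.1 ± 1.64 TPM with no read in heart or lung, at least 3031-fold and 2854-fold over heart. Of the anterior and middle Hox genes all 21 tested were higher than the mean and 11 were kidney-high (median 6.12 and 6.09). With the other libraries as 1 group 18 of the 21 and all 9 posterior genes were higher. Hoxd8 stood at 34.6 ± 4.99 and 40.7 ± 4.20 TPM and was kidney-high, whereas Hoxb4 stood at 17.5 ± 3.33 and 17.1 ± 3.12 TPM in kidney and 16.1 ± 3.02 and 17.0 ± 3.32 TPM in lung, values that overlapped, at a log2 difference of 1.195 ± 0.068 and 1.06 ± 0.062. Hoxa5 was higher in lung, at 37.8 ± 6.22 and 45.1 ± 7.72 TPM against 12.4 ± 1.69 and 12.2 ± 1.57 TPM. The plot of Hox levels by tissue shows each tissue beside kidney.

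**Figure D4:**
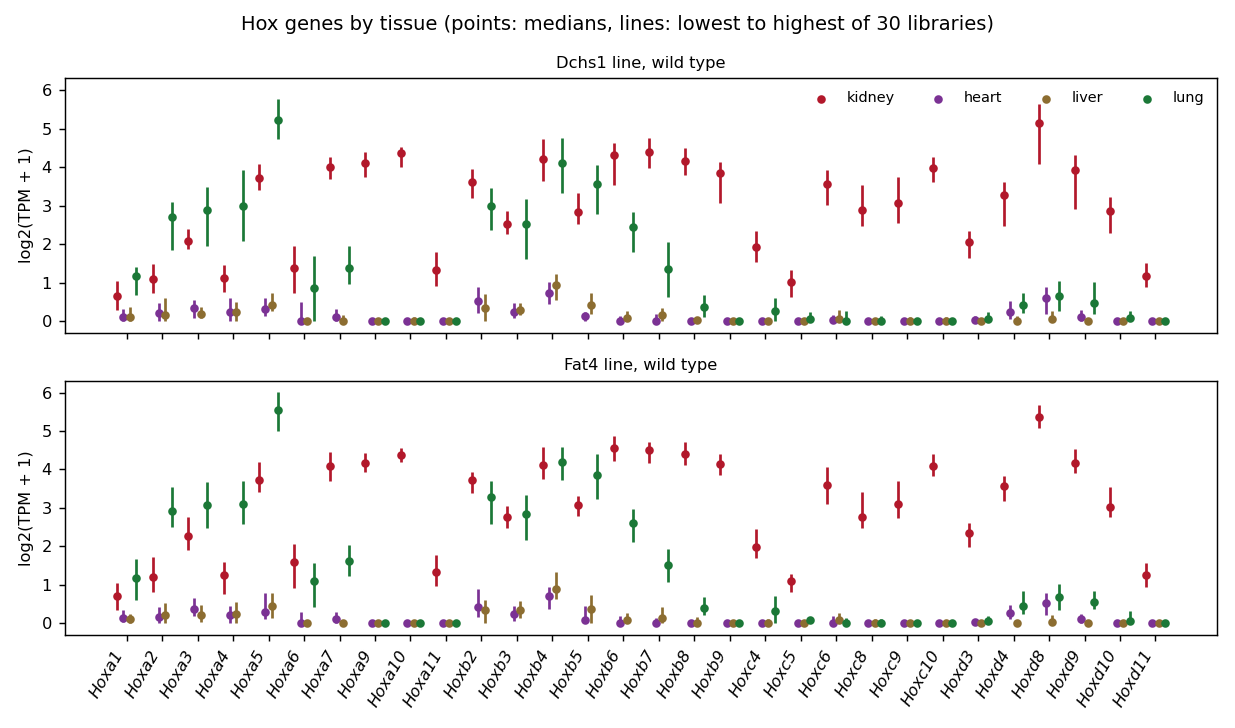
Levels of 30 Hox genes by tissue in the Dchs1 line (top) and the Fat4 line (bottom) on a log2(TPM + 1) scale. Points are medians and vertical lines run from the lowest to the highest of 30 libraries. Posterior genes such as Hoxa10 are read in kidney and near 0 in heart, liver and lung, while Hoxa5 stands higher in lung than in kidney.

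Of 15 genes tested for kidney hormones and vitamin D handling, 10 were kidney-high and 15 were higher (median 6.80 and 6.37), with 12 higher and 1 lower when the other libraries were 1 group, and Epo did not pass the filter on low counts. Vdr, the vitamin D receptor, lay between 68.0 and 156 TPM (median 109) in Dchs1-line kidneys and between 96.2 and 163 TPM (median 121) in Fat4-line kidneys. Kl, the klotho co-receptor for phosphate-regulating FGF23, was at 86.7 ± 29.0 and 95.01 ± 21.9 TPM and Pth1r, the parathyroid hormone receptor, at 209 ± 37.6 and 231 ± 32.1 TPM, both above all other libraries. Cyp27b1, which makes active vitamin D, varied widely, between 0.802 and 28.9 TPM (median 3.003) in Dchs1-line kidneys and between 0.973 and 9.40 TPM (median 3.36) in Fat4-line kidneys. Cyp24a1, which breaks it down, lay between 19.8 and 112 TPM (median 40.2) in Dchs1-line kidneys and between 17.97 and 94.7 TPM (median 44.6) in Fat4-line kidneys, with at most 0.0669 and 0.0282 TPM in any other library.

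Kidney shared the expression of some genes with 1 other tissue. Genes within 2-fold of 1 tissue and at least 4-fold over the other pair in both lines numbered 165 for liver (1.03%), 142 for lung (0.887%) and 41 for heart (0.256%). The order of liver and lung depended on scaling: without TMM lung had 272 genes, and heart 15. None of 11 genes tested for gluconeogenesis was kidney-high, and all 11 were higher than the mean of the tissues (median 3.28 and 3.34). With the other libraries as 1 group 4 of the 11 were higher, and Pck1, Fbp1 and G6pc no longer passed in either line (1.26 and 1.23, 0.78 and 0.86, and 0.012 and 0.19). Pck1, the committing enzyme of this pathway, lay between 868 and 3900 TPM (median 2316) in Dchs1-line kidneys and between 1792 and 3504 TPM (median 2507) in Fat4-line kidneys, and liver stood at 2139 ± 499 and 2292 ± 522 TPM, a log2 difference of -0.31 ± 0.28 and -0.35 ± 0.23. Fbp1, fructose bisphosphatase, stood at 692 ± 132 and 761 ± 106 TPM against 890 ± 160.5 and 898 ± 132 TPM in liver. G6pc, which releases free glucose, was higher in liver, at 333 ± 120.5 and 305 ± 96.4 TPM against 149.6 ± 65.8 and 160.5 ± 42.6 TPM in kidney, a log2 difference of -1.57 ± 0.11 and -1.39 ± 0.083. Slc27a2, a fatty acid transporter, stood at 2006 ± 358 and 2199 ± 326 TPM in kidney and 1533 ± 185 and 1646 ± 150.5 TPM in liver, where the values overlapped.

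Of 25 genes of amino acid breakdown and creatine synthesis, 18 were higher and 6 lower than the mean (median 2.10 and 2.14), with 2 kidney-high and 1 kidney-low. These became 5 higher and 10 lower with the other libraries as 1 group. Gatm, which makes the precursor of creatine, was kidney-high at 132 ± 32.6 and 135 ± 37.5 TPM. Ass1, which joins citrulline and aspartate for arginine, stood at 1343 ± 249.7 and 1513 ± 241 TPM in kidney and 2475 ± 738 and 2575 ± 395 TPM in liver. Tat, tyrosine aminotransferase, was the kidney-low member, with kidney libraries at no more than 0.447 and 0.0772 TPM against a liver mean of 999 and 931 TPM. Fatty acid oxidation genes were mixed, with 14 of 20 higher and 5 lower (median 0.68 and 0.77), or 1 higher and 8 lower with the other libraries as 1 group. Acadm, the medium-chain dehydrogenase, was at 511 ± 62.0 and 572 ± 89.3 TPM, while Hadha, of the trifunctional protein, was lower, with a log2 difference of -1.15 ± 0.037 and -0.995 ± 0.031. Of 20 respiratory chain genes 18 were higher, by a median of only 0.25 and 0.47, and with the other libraries as 1 group the difference of 17 of the 20 was negative in both lines, 1 of them past the threshold. With heart, kidney shared Ldhb, a lactate dehydrogenase subunit, at 681 ± 80.7 and 775 ± 68.8 TPM against 817 ± 64.9 and 818 ± 37.5 TPM, and Oxct1, which starts ketone body use, at 406 ± 49.96 and 412 ± 48.0 TPM against 288 ± 19.9 and 278 ± 22.5 TPM. Spp1 (osteopontin) was shared with lung, at 203 ± 40.6 and 269 ± 51.1 TPM in kidney and 382 ± 89.4 and 396 ± 59.8 TPM in lung, and so was Plvap, the diaphragm protein of fenestrated capillaries, at 144 ± 22.2 and 163 ± 29.6 TPM and 244 ± 67.8 and 281 ± 65.2 TPM.

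Kidney-low genes took 0.013% and 0.014% of kidney TPM, against 2.03% and 1.85% in liver, 0.856% and 0.858% in lung and 0.329% and 0.325% in heart. Csrp3, a protein of the cardiac Z-disc, was unread in the median kidney library and at most 0.0833 and 0.0907 TPM there, against 1027 ± 139 and 998 ± 85.2 TPM in heart, 41.2 ± 10.4 and 34.6 ± 8.24 TPM in liver and 18.4 ± 6.65 and 19.96 ± 7.53 TPM in lung. Vtn (vitronectin) lay between 0.0753 and 0.540 TPM (median 0.216) in Dchs1-line kidneys and between 0.0933 and 0.540 TPM (median 0.303) in Fat4-line kidneys, below all 90 other libraries of its line. Its level in liver was 1883 ± 275 and 1687 ± 206 TPM. Hspb8, a small heat shock protein, stood at 2.88 ± 0.833 and 2.98 ± 0.496 TPM in kidney and at 180 ± 16.2 and 180.3 ± 13.5 TPM in heart, and Hopx, a homeodomain cofactor, at 6.72 ± 1.23 and 7.43 ± 1.02 TPM and at 1515 ± 158 and 1584 ± 85.3 TPM in lung. The acute phase genes Serpina3n, at 1.09 ± 0.618 and 0.958 ± 0.309 TPM, and Lrg1, at 3.34 ± 1.21 and 3.47 ± 0.777 TPM, were also below all other libraries in all 30 kidneys of each line.

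Marker lists of other tissues and cell types were mostly lower in kidney. Of 15 cardiomyocyte genes 12 were lower and 1 higher (median -5.88 and -6.04), and their summed level in kidney ranged from 64.9 to 133 and from 90.4 to 145 TPM. Of 15 lung epithelium genes 12 were lower, with 1 higher, Napsa (median -4.87 and -5.26). Their sum, which Napsa dominates, ranged from 422 to 1171 and from 749 to 1461 TPM. Of 18 hepatocyte genes 7 were higher and 7 lower (median -1.56 and -1.14), or all 18 lower with the other libraries as 1 group, with a sum from 126 to 685 and from 226 to 503 TPM. Of 7 skeletal muscle genes tested 4 were lower and 1 higher, with sums from 0.857 to 5.34 and from 1.32 to 3.42 TPM. Fat lies around the kidney, and of 10 fat genes 7 were higher than the mean, 2 lower and none kidney-high. The counts were 5 higher and 3 lower with the other libraries as 1 group. Their sums in kidney ran from 158 to 932 and from 222 to 853 TPM (medians 423 and 421). Heart lay above every kidney, from 1231 to 2594 and from 1248 to 2184 TPM. The medians were 438 and 375 TPM in liver and 264 and 215 TPM in lung. The adrenal gland lies on the kidney, and 10 of its 13 marker genes, Cyp11b1 and Th among them, did not pass the filter on low counts, with sums of at most 5.54 and 6.13 TPM. Urothelium of the renal pelvis had 7 of 9 genes higher and 2 kidney-high, Upk3a at 2.30 ± 0.772 and 3.06 ± 1.01 TPM and Psca at 12.3 ± 3.18 and 14.8 ± 2.65 TPM, of which Upk3a was not kidney-high without scaling. The urothelium sums ran from 35.4 to 86.35 and from 49.9 to 93.3 TPM in kidney, below their medians of 441 and 410 TPM in lung. Of the 9 genes, 5 were higher and 2 lower with the other libraries as 1 group. Of 12 macrophage genes 8 were lower and 1 higher, Mrc1 among the kidney-low genes but not without scaling (median -1.26 and -1.10), with sums in kidney from 176 to 356 and from 213 to 541 TPM. Of 13 lymphocyte genes 8 were lower and none was higher by edgeR (median -0.85 in each line), with sums from 4.58 to 11.6 and from 4.71 to 10.7 TPM. Of 13 endothelial genes 11 were lower and 2 higher (median -0.47 and -0.42), with sums from 226 to 437 and from 317 to 483 TPM. Of 14 fibroblast and matrix genes 12 were lower and 1 higher (median -1.36 in each line), with sums from 251 to 552 and from 271 to 463 TPM. Of 10 smooth muscle genes 5 were higher and 2 lower (median 0.19 and 0.21), or 1 higher and 4 lower with the other libraries as 1 group, with sums from 145 to 310 and from 164 to 314 TPM. The part of these cells in the results above was not tested.

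The kidney libraries of a line differed among themselves. In the Dchs1 line 1 kidney library held 67.7% mitochondrially encoded TPM, the highest of its line. The same library had the lowest Kap, Umod and Slc12a1 of its line, though not the lowest Slc34a1 or Miox. Leaving out the kidney library of highest mitochondrial share in each line gave 592 kidney-high genes, 590 of them among the 593. Among 6033 genes of at least 10 TPM the median SD of log2(TPM + 1) across 30 kidneys was 0.22 and 0.16, and among the 319 kidney-high genes of that level it was 0.30 and 0.24. Hsd3b4, a steroid dehydrogenase, was among the widest, between 7.65 and 200.1 TPM (median 28.2) in Dchs1-line kidneys and between 11.2 and 238 TPM (median 35.2) in Fat4-line kidneys, and near-identical copies make its reads uncertain. Tmem252, a membrane protein, lay between 59.2 and 548 TPM (median 223) in Dchs1-line kidneys and between 112 and 482 TPM (median 261) in Fat4-line kidneys. Hoxa10, Hoxa9 and Emx2 were among the 4 steadiest, and Hoxa10 had an SD of 1.42 and 1.41 TPM around its means.

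Markers of the proximal tubule varied together across kidneys. In total, 12 relations were tested (6 pairs of markers in each line, on log2(TPM + 1), with permutation p from 100000 draws adjusted over the 12). Slc34a1 and Miox of the proximal tubule had Pearson's r of 0.92 and 0.86 (adjusted permutation p = 4e-05 in each line) and Spearman's rho of 0.91 and 0.86 (4e-05 in each line). Without the 2 libraries furthest from the median of Slc34a1, r was 0.90 and 0.83, and in the longest stretch of label numbers it was 0.94 and 0.89. Umod and Slc12a1 of the thick ascending limb had r of 0.67 (adjusted permutation p = 0.0012) and 0.89 (4e-05). In the longest stretch of label numbers r was 0.75 and 0.91, and on log2 CPM 0.51 and 0.88 (adjusted permutation p = 0.013 and 4e-05). Spearman's rho was 0.87 in the Fat4 line (adjusted permutation p = 4e-05) and 0.35 in the Dchs1 line (0.17), where r fell to 0.26 without the 2 furthest libraries, so that the relation there rests on them. Between the segments r lay between -0.065 and 0.042 in the Fat4 line (adjusted permutation p from 0.91 to 0.98). In the Dchs1 line it was 0.46 for Miox and Slc12a1 and 0.45 for Slc34a1 and Slc12a1 (adjusted permutation p = 0.024 for each), and 0.35 and 0.29 without the 2 furthest libraries. For Miox and Umod it was 0.43 (0.034, and r of 0.21 without the 2 furthest libraries), and for Slc34a1 and Umod 0.27 (0.22). Spearman's rho of these 4 pairs in the Dchs1 line had adjusted permutation p from 0.34 to 0.81. The scatter plots of the same-segment pairs show each library.

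**Figure D5:**
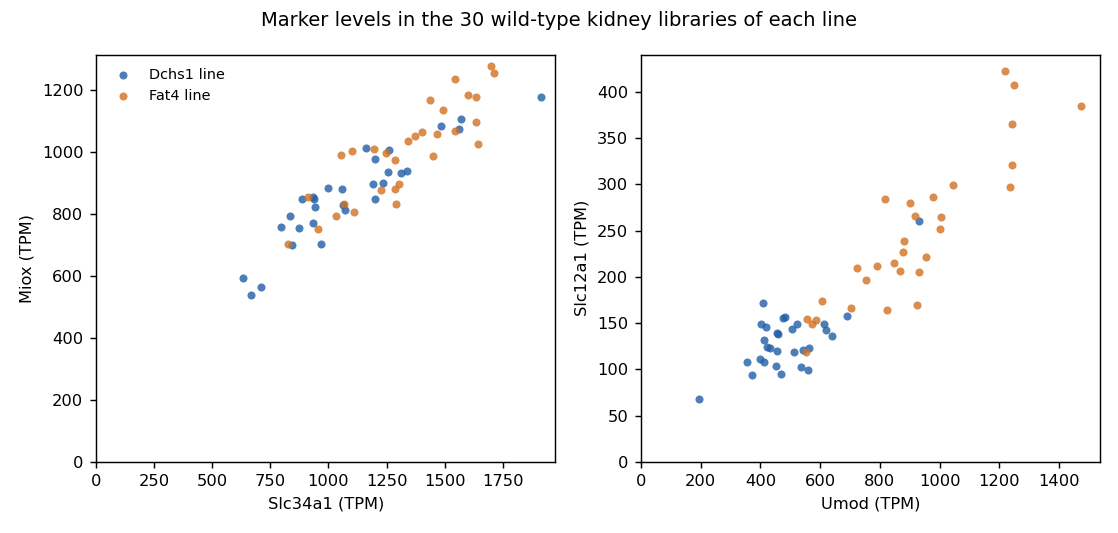
Levels in TPM of Slc34a1 (x axis) and Miox (y axis) on the left and of Umod (x axis) and Slc12a1 (y axis) on the right in the 30 kidneys of each line, each point a library coloured by line. Slc34a1 and Miox rise together in both lines (r = 0.92 and 0.86 on the log2 scale), as do Umod and Slc12a1 in the Fat4 line (r = 0.89).

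The difference of kidney from the other tissues was compared between the lines by an interaction term over the 240 wild-type libraries. At adjusted p under 0.05 (edgeR) 3165 of 16464 genes (19.2%) differed between the lines, and 32 (0.194%) by at least 2-fold. Of the 593 kidney-high genes 51 differed, 5 of them by at least 2-fold, and the median size of the difference was 0.17. For 66 of the 593 each line had a tissue without a read and the test holds no information. Without the 1 liver library of each line 35 genes differed, 34 of them among the 51, and 1 by at least 2-fold. Egf was higher against the other tissues in the Fat4 line by 0.76 ± 0.113 (adjusted p = 2.5e-08). Its kidney means were 118 and 212 TPM, with ranges that overlapped. Kidney means of Umod were 491 and 909.6 TPM and of Slc12a1 132 and 244 TPM, also with overlapping ranges, and line cannot be told apart from the set of libraries each line was measured in. The genes of the 2 alleles were low in wild-type kidney, Dchs1 at 1.46 ± 0.251 and 1.81 ± 0.294 TPM and Fat4 at 0.792 ± 0.132 and 0.866 ± 0.138 TPM.

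The same classes were sought in the heterozygotes, which the choice of genes did not use. Of the 593 kidney-high genes 542 met the rule in the Dchs1+/- libraries, where 3.65% of all genes did, 584 in the Fat4+/- libraries (3.89%) and 537 in both. Of the 108 kidney-low genes 82 (0.668% of all genes), 101 (0.846%) and 81 did.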

How the data were processed

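Total RNA was extracted with MagMAX kits and treated with DNase, mRNA was selected with Dynabeads, and strand-specific KAPA mRNA-Seq libraries were sequenced single-end, per the labels' protocols. Reads were demultiplexed with bcl2fastq 2.17 and checked with FastQC, and the genome build was GRCm38, per the submitters' processing notes, with an aligner and quantifier not given in the sources used here. For each line the authors deposited a table of estimated counts and a table of TPM over 24475 gene identifiers. RefSeq's table (GRCm38.p6) gave a symbol for 24375 of them, and the other 100 stayed in the fits and were not named. Of the estimated counts, 15.5% and 15.7% were not whole, and all were rounded to whole counts here.

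Counts were fitted per line with edgeR 4.0.16 (R 4.3.3) in its quasi-likelihood form over the 120 wild-type libraries, with TMM scaling and filterByExpr (minimum count 10, total 15). Contrasts were kidney minus heart, liver, lung and their mean, with Benjamini-Hochberg adjustment at 0.05 over all genes tested. The SE is the absolute log2 difference divided by the square root of F. Differences between the lines were an interaction term over all 240 wild-type libraries. The fit was tried on simulated counts of the Dchs1 wild types, with 50 genes raised in kidney at each fold. Of these 50 genes, 7 met the kidney-high rule of 1 line at 4-fold, the limit of the rule, and 50 at 8-fold. Against the mean of the tissues 0.129% of 15875 unchanged genes were called. The simulation gave each gene 1 mean over all tissues, unlike the real tissues. Alternatives used DESeq2 1.42.0 and limma 3.58.1 (log2(TPM + 1) and log2(TPM + 0.1), genes of at least 1 TPM in 20 libraries), other scaling, filters, thresholds and subsets of libraries. Leaving out the 1 liver library of each line and the kidney library of highest mitochondrial share was added after seeing the data. No pair of libraries agreed within sampling noise: the lowest chi-square per gene was 3.67 and 3.51.

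The groups, the gene lists (37, with 547 of 549 entries matched by symbol) and the tests were chosen with earlier results of these data known. Genes named in the text are the 4 markers, the 10 most abundant kidney-high genes, the 12 with the largest differences at 10 TPM or more, and the 8 kidney-low genes with the largest gap. They also include up to 5 of each list by kidney TPM, up to 4 that go against their list, the 6 widest and 4 steadiest kidney-high genes, the 6 with the largest line difference, the 6 most abundant shared with each tissue, and Dchs1 and Fat4. Avpr2, Calb1, Cldn16, Cldn19, Cldn8, Cubn, Cyp11b1, Cyp27b1, Cyp2j13, Epo, Foxi1, G6pc, Gas2, Hoxa5, Kcnj1, Kcnj16, Lrp2, Mpp1, Mrc1, Nphs1, Pax2, Pdzk1, Pepd, Pkhd1, Pvalb, Pyroxd2, Scnn1g, Six2, Slc26a4, Slc5a2, Th, Treh and Trpv5 were chosen after their values were seen. Some members of the lists are counted but not reported here by name.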

Additional observations from a re-analysis of the deposited data

Results flagged for a closer look

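The difference of kidney from the other tissues differed between the 2 lines for 3165 of 16464 genes by edgeR's interaction test. Among kidney-high and kidney-low genes, the named ones were Slc12a1, with a difference of 1.33 on the log2 scale (adjusted p = 0.023, higher in the Fat4 line), Guca2b, which encodes the hormone uroguanylin, with 1.29 (adjusted p = 0.00061) and Aqp2 with 1.15 (adjusted p = 0.017). Fut9, a fucosyltransferase gene, differed by -1.13 (adjusted p = 0.041), Klk1b5, a kallikrein with near-identical copies, by 1.01 (adjusted p = 0.035) and Ddn, which encodes dendrin of podocytes, by 0.89 (adjusted p = 0.016). Liver reads behind them were few. In the Dchs1 line liver held 8 reads of Slc12a1, 15 of Guca2b, 6 of Aqp2 and 6 of Fut9, and leaving out 1 liver library left 0, 1, 0 and 0. Without that library of each line Slc12a1, Aqp2 and Fut9 could not be tested, Guca2b differed by 0.51 (adjusted p = 0.15), Ddn by 0.72 (adjusted p = 0.10) and Klk1b5 by 1.02 (adjusted p = 0.036). Where a line has a tissue with no read (Guca2b, Aqp2 and Ddn in the Fat4 liver), the size of the difference depends on the prior count of the fit. Line cannot be told apart from the set of libraries each line was measured in.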

How the results depend on the processing

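The count of genes higher in kidney than the mean of the tissues stayed within 1.5 times under the alternatives tried, except with the 90 other libraries as 1 group, which gave 4196 genes for Dchs1 and 4376 for Fat4. Without scaling, 54.8% and 58.9% of the genes called were higher in kidney, and the median gene moved by 0.051 and 0.13 on the log2 scale. With limma on log2(TPM + 1) the shares were 39.5% and 45.1%. The kidney-high count of 593 became 969 at 2-fold, 301 at 16-fold, 905 with a test against 2-fold (glmTreat) and 347 with limma on log2(TPM + 1). The kidney-low count of 108 became 332, 14, 253 and 20 under the same settings, and 53 with limma on log2(TPM + 0.1). Genes shared with heart (41) numbered 15 without scaling and 9 with limma on either log2(TPM + 1) or log2(TPM + 0.1), those shared with liver (165) numbered 104 with limma on log2(TPM + 1), and those shared with lung (142) numbered 272 without scaling and 242 with limma on log2(TPM + 0.1). The cause was not tested. Of the marker correlations, 3 in the Dchs1 line lost their adjusted permutation p under 0.05: on log2 CPM and in the longest stretch of label numbers, r was 0.19 and 0.47 for Slc34a1 and Slc12a1, 0.013 and 0.46 for Miox and Umod, and 0.14 and 0.47 for Miox and Slc12a1. Of the 2829 values of named genes under alternatives, 34 lost their call, 1 gained one and 9 changed sign for a gene called in the reported fit. The other 2785 kept their direction and side of the threshold, or changed sign for a gene not called in the reported fit. The 9 were Dchs1 itself in the Dchs1 line (-0.016 with limma on log2(TPM + 1)) and, with the other libraries as 1 group, Dchs1 (-0.027), Ndufa11 in the Fat4 line (-0.35), Cyp2e1 (-1.41 and -1.47), Krt7 (-0.72 and -0.31) and Scnn1g (-1.77 and -1.42). No paired analysis was possible because each label number belongs to 1 library. Genes low in heart, liver and lung had few reads there, and depth limits the size of their fold.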

Other observations

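Atp6v1g3, a proton pump subunit of intercalated cells, fell into separate levels across kidneys of each line. In the Dchs1 line 10 wild-type kidneys lay between 19.2 and 27.7 TPM and 20 between 58.9 and 127 TPM, and in the Fat4 line 13 lay between 20.6 and 35.9 TPM and 17 between 83.1 and 129 TPM. In the heterozygotes, which were not used to pick the gene, the widest gap was sought anew, so some split was bound to be found. There 7 Dchs1+/- kidneys lay between 25.1 and 51.1 TPM and 23 between 87.3 and 151 TPM. Of the Fat4+/- kidneys 12 lay between 19.1 and 27.9 TPM and 18 between 74.6 and 126 TPM. The wild-type gap was not empty in them: Dchs1+/- values reached up to 51.1 TPM and Fat4+/- values down to 74.6 TPM. The empty gap of the heterozygotes was 0.77 on the log2 scale in the Dchs1 line, under the 1 used to find the gap, and 1.42 in the Fat4 line. Among the 319 kidney-high genes of at least 10 TPM it was the 1 gene with an empty gap of at least 1 on the log2 scale and at least 5 libraries on each side in both lines. Of all 6033 genes of that level 9 had such a gap, the others being Dynlt1a, Erdr1, Fuom, Hbb-bs, Hmgb2, Ndufa11, Pet100 and Prpf19. The cause of the gap was not tested.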
